A study of Mus musculus with 40 samples.

Results

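Regulatory T cells (Treg) of the kidney were set against those of the pancreas in 6 of the 40 libraries of a survey of mouse CD4+ T cells, 3 libraries for each organ. The members were the libraries labelled kidney replicates 1, 3 and 5 and pancreas replicates 1, 5 and 6, and values are given below in that order. All mice were wild type (WT) and were perfused, their ages are not given, and no treatment is named. CD4+ cells that carried the Foxp3-Thy1.1 reporter were sorted as Treg and those without it as conventional T cells (Tconv), 2000 cells to a library after digestion of the tissue. The survey covered 10 sources with 3 Treg libraries and 1 Tconv library each, namely kidney, pancreas, liver, lung, blood, spleen, lymph node, Peyer's patch, and the intraepithelial (IEL) and lamina propria (LPL) lymphocytes of the small intestine. Which libraries came from 1 animal is not stated, so standard errors (SE) and p-values measure the spread between these libraries only. RNA was read from its 3′ ends and counted per gene, and levels are given as counts per 1000000 counts (CPM) with the library total scaled by TMM.

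Treg restrain other immune cells and depend on the transcription factor Foxp3. Those that live in solid organs carry another set of receptors than those of blood and lymph node, among them the chemokine receptor Ccr8. Digestion of a solid organ releases its parenchymal cells with the lymphocytes: in the pancreas these are mainly acinar cells, which make digestive enzymes, and in the kidney mainly tubule cells, which reabsorb salts and solutes. Early response genes of the Fos, Jun and Nr4a families are induced within minutes by receptor signals, and heat shock genes are induced when proteins unfold. Transcripts of acinar and tubule cells are reported apart from those of T cells below.

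Total counts of the 6 libraries ran from 17545858 to 27226115, and 17218 to 18431 genes had a count. Foxp3, which checks the sort, stood at 191, 250 and 238 CPM in kidney and 145, 146 and 166 CPM in pancreas Treg, against 0.453 and 1.34 CPM in the Tconv of the same organs. Kidney replicate 1 and pancreas replicate 6 stood apart from the other libraries of their organ: chi-square per degree of freedom over genes was 183 and 209 for kidney replicate 1 against the other 2 and 245 and 286 for pancreas replicate 6, but 31.7 and 32.0 within the remaining pairs. The same libraries held the most tubule and acinar counts, as given below, and the most mitochondrially encoded RNA of their organ. The mean of 9 such transcripts as log2(CPM + 1) was 10.15, 8.12 and 8.11 in kidney and 8.42, 8.30 and 9.19 in pancreas, against 9.10 to 9.97 in lymphoid Treg, and its part in the results was not tested. Pancreas replicates 1 and 5 had Xist, the RNA that coats the inactive X chromosome, at 58.0 and 67.3 CPM, whereas pancreas replicate 6 and the kidney libraries were at 0.0956 CPM or less. The labels do not give the sex of the mice. The Y-linked gene Ddx3y was at most 0.163 CPM, without TMM scaling, in the 7 Treg libraries with Xist above 10 CPM. In the other 23 it was at least 45.3 CPM. By this RNA pancreas replicates 1 and 5 read as female, and pancreas replicate 6 and the kidney libraries as male. The part of this difference in the results was examined only by adding Xist class as a term, as stated where it matters. Among Treg, both Xist classes occurred within the same source only in pancreas and lung. The term therefore rests on those libraries, and its effect cannot be told apart from other traits of pancreas replicate 6. In fits without pancreas replicate 6, kidney libraries without Xist stood against pancreas libraries with it. Organ and Xist class cannot be told apart in those fits.

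Between kidney and pancreas Treg, 45 of 17909 genes tested (0.251%) differed at an adjusted p below 0.05 (edgeR quasi-likelihood test with Benjamini-Hochberg adjustment). Of these, 7 (0.0391% of genes tested) were higher in kidney and 38 (0.212%) in pancreas. The pancreas side was mostly acinar, with 24 of the 38 genes on the list of acinar markers, and 2 of the 7 kidney genes were on the tubule list. That left 5 genes higher in kidney and 14 in pancreas on neither list. The called genes held no overlap between organs in 42 of 45 cases, while over all genes tested 958 (5.35%) had every kidney library above every pancreas library and 1129 (6.3%) the reverse. The calls depended on the libraries. Without kidney replicate 1 and pancreas replicate 6, a fit chosen after seeing the data, the test called 187 of 18983 genes (0.985%), of which 31 were among the 45. Of the 187, 117 were higher in kidney and 70 in pancreas. Organ and Xist class coincided in that fit, and the Y-linked gene Ddx3y was among the 117. In a fit of the 6 libraries alone 1 of 13934 genes was called, Cuzd1, with 1013 at an unadjusted p below 0.05. Leaving out each library in turn, 17 of the 45 genes passed in all 6 fits, 12 of them acinar and 1 tubule, and Tbc1d4 was the T cell gene among the other 4.

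**Figure D1:**
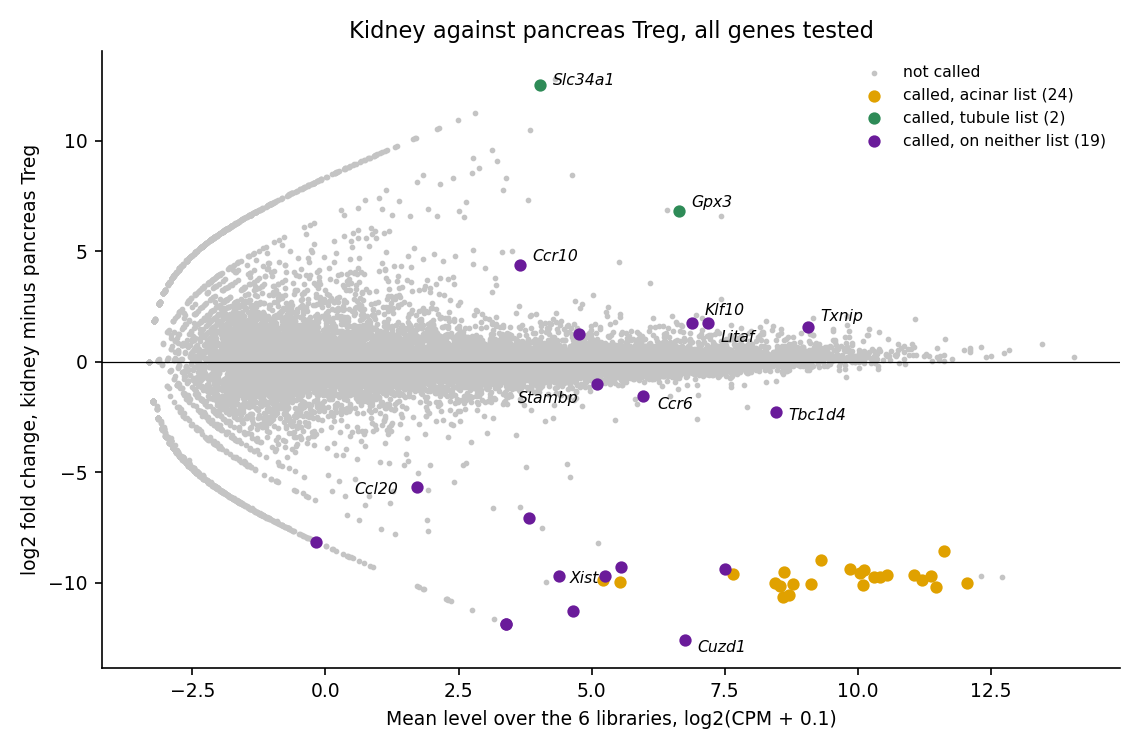
Log2 fold change (kidney minus pancreas Treg) of each gene tested against its mean level over the 6 libraries as log2(CPM + 0.1), with called genes coloured by list. The 24 called acinar genes form a group near -10 at high levels, while the called T cell genes lie between Tbc1d4 at -2.27 and Ccr10 at 4.36, apart from Ccl20 at -5.69.

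Kidney Treg had more of the chemokine receptor Ccr10, the transcription factor Klf10, the thioredoxin-binding protein Txnip, the membrane protein gene Litaf and the zinc finger gene Zfp707, the 5 called genes that are not tubule markers. Ccr10 (mm10 chromosome 11, 101172997 to 101175443), a receptor for the chemokines Ccl27 and Ccl28, stood at 12.7, 21.9 and 36.9 CPM in kidney and at 1.65, 1.69 and 0 CPM in pancreas. Every kidney library was above every pancreas library, a log2 fold change of 4.36 (SE 0.81; adjusted p = 0.0127). The 9 lymphoid Treg libraries (blood, spleen and lymph node) lay between 2.23 and 27.1 CPM, so the pancreas libraries were below that whole range. Low Ccr10 was shared with gut Treg, at 0 CPM in Peyer's patch and at most 0.036 CPM in IEL. Against the lymphoid Treg the fall in pancreas was 2.97 on the log2 scale (adjusted p = 0.00911), while the kidney difference of 1.39 missed the threshold (adjusted p = 0.0794). The Ccr10 call was lost without kidney replicate 5 (adjusted p = 0.0738), pancreas replicate 1 (0.0533) or pancreas replicate 5 (0.0504).

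Txnip (chromosome 3, 96557957 to 96561883) restrains glucose uptake and thioredoxin. It stood at 840, 896 and 669 CPM in kidney and 204, 256 and 348 CPM in pancreas, without overlap (log2 fold change 1.57, SE 0.30; adjusted p = 0.0139). Lymphoid Treg held 618 to 2736 CPM, and here too it was the pancreas that left that range (-2.19; adjusted p = 9.72e-06). This was not particular to the pancreas, since LPL Treg held 255 to 346 CPM. Klf10 (chromosome 15, 38291463 to 38300706), a Krüppel-like factor induced by TGF-beta, was at 64.0, 188 and 295 CPM in kidney and 60.7, 66.2 and 36.6 CPM in pancreas. Its difference of 1.74 (SE 0.32; adjusted p = 0.00834) came from kidney replicates 3 and 5, since kidney replicate 1 lay within the pancreas range. Litaf (chromosome 16, 10959275 to 11066157), which encodes an endosomal membrane protein, had the same shape, at 64.8, 253 and 361 CPM against 64.5, 53.5 and 82.7 CPM (1.76, SE 0.37; adjusted p = 0.0319). For both genes the kidney stood above lymphoid Treg, by 1.96 for Klf10 (adjusted p = 2.44e-06) and 2.62 for Litaf (adjusted p = 2.82e-07), while the pancreas differences of 0.21 and 0.86 did not pass (adjusted p = 0.668 and 0.0534). Zfp707 (chromosome 15, 75969123 to 75975868) was at 28.2, 48.9 and 38.0 CPM against 19.4, 14.1 and 14.2 CPM, without overlap (1.27, SE 0.27; adjusted p = 0.0319). Klf10 lost its call without kidney replicate 3 (adjusted p = 0.0593), kidney replicate 5 (0.191) or pancreas replicate 6 (0.0691), and Txnip without kidney replicate 3 (0.126), pancreas replicate 1 (0.174) or pancreas replicate 5 (0.113). Litaf and Zfp707 kept theirs in 1 of the 6 fits, the one without kidney replicate 1, and reached adjusted p-values up to 0.327 and 0.329 in the others. With Xist class as a term Txnip (0.0540), Litaf (0.167) and Zfp707 (0.202) missed the threshold, and without a filter on low counts Ccr10, Litaf and Zfp707 did (0.0555).

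Pancreas Treg had more Tbc1d4, the chemokine receptor Ccr6 and its ligand Ccl20, and the deubiquitinase Stambp. Tbc1d4 (chromosome 14, 101442360 to 101609191), a Rab GTPase-activating protein known from insulin-driven transport of glucose carriers, stood at 213, 74.5 and 75.8 CPM in kidney and 706, 560 and 488 CPM in pancreas. The groups did not overlap, and even the highest kidney library, replicate 1, was below the lowest pancreas library. The log2 fold change was -2.27 (SE 0.28; adjusted p = 6.01e-05), a 4.83-fold higher level in pancreas. Against the mean of lymphoid Treg the organs differed in opposite directions, kidney by -1.13 (adjusted p = 0.00142) and pancreas by 1.14 (adjusted p = 0.000565). Kidney replicate 1 and pancreas replicate 6 lay within the lymphoid range of 126 to 502 CPM. Low levels were not particular to kidney, at a mean of 121 CPM, since blood, liver and lung Treg had means of 145, 127 and 131 CPM. Peyer's patch Treg held 434 to 521 CPM. Without kidney replicate 1 and pancreas replicate 6 the difference was -3.07 (SE 0.21; adjusted p = 3.66e-09), the smallest p of that fit, and over the 6 fits with 1 library left out it ran from -2.97 to -2.05. The kidney and pancreas Tconv libraries held 110 and 246 CPM.

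Ccr6 (chromosome 17, 8236043 to 8257141), which guides T cells to mucosal and inflamed tissue, stood at 28.4, 33.7 and 31.8 CPM in kidney and 87.2, 96.3 and 95.1 CPM in pancreas. The libraries of each organ were close together and the organs were far apart (log2 fold change -1.57, SE 0.34; adjusted p = 0.0452). Ccl20 (chromosome 1, 83116766 to 83119167), the chemokine that binds Ccr6, was at 0, 0.256 and 0.0838 CPM in kidney and 8.66, 7.61 and 2.45 CPM in pancreas. Its log2 fold change was -5.69 (SE 1.25; adjusted p = 0.0471), and lymphoid Treg had at most 0.248 CPM. Gut Treg held more Ccl20 on average than pancreas Treg, at 76.9 to 95.7 CPM in LPL, 33.7 to 99.8 CPM in IEL and 7.05 to 25.9 CPM in Peyer's patch. The pancreas Tconv library had no Ccl20 count. Stambp (chromosome 6, 83543211 to 83572729) was at 24.2, 22.9 and 21.6 CPM in kidney and 48.4, 55.2 and 34.1 CPM in pancreas (-1.0, SE 0.18; adjusted p = 0.00835). Ccr6 lay just under the threshold and was lost in each of the 6 fits with 1 library left out (adjusted p = 0.0771 to 0.191). Ccl20 was kept only without pancreas replicate 6 (adjusted p = 0.0363) and reached 0.272 otherwise, and Stambp was kept only without kidney replicate 1 or pancreas replicate 6 and reached 0.113 otherwise. With Xist class as a term Ccr6 (0.148) and Stambp (0.121) missed the threshold, and without a filter on low counts Ccl20 (0.158) and Stambp (0.0715) did.

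**Figure D2:**
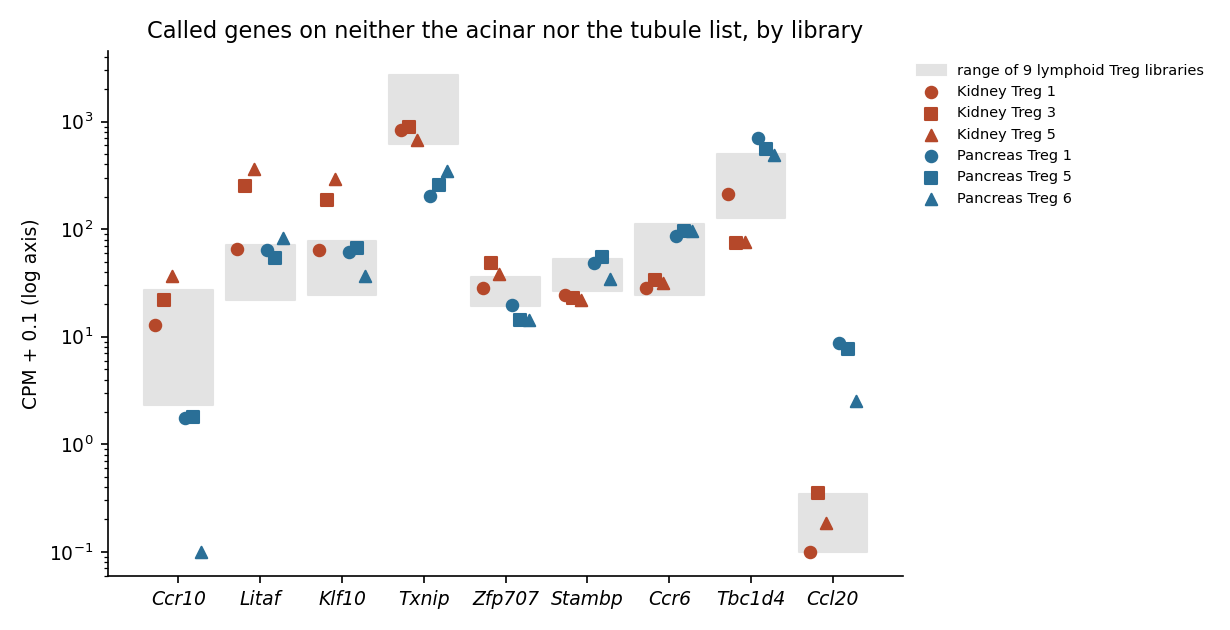
Level of 9 called genes on neither the acinar nor the tubule list, as CPM + 0.1 on a log axis, in the 3 kidney (red) and 3 pancreas (blue) Treg libraries, with the range of 9 lymphoid Treg libraries in grey. For Klf10 and Litaf the lowest kidney point (replicate 1) sits among the pancreas points, and Tbc1d4 shows kidney replicates 3 and 5 below and pancreas replicates 1 and 5 above the lymphoid range.

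Acinar transcripts made up 3.79%, 3.24% and 14.9% of all counts in pancreas Treg, against 0.000777%, 0.00825% and 0.0186% in kidney Treg, and 1.17% in pancreas Tconv. The 9 lymphoid Treg libraries held 0.000250% to 0.00290%. All 32 acinar genes tested, of 35 on the list, were higher in every pancreas than in every kidney library, and 24 were called, with a median log2 fold change of -9.75 over the 32 against 0.01 over all genes. Of all genes tested 6.3% were higher in every pancreas library and 0.212% were called higher in pancreas. In bulk libraries fewer cells of a type and less RNA per cell cannot be told apart. The most abundant was Pnlip, pancreatic lipase, at 6614, 5962 and 27420 CPM in pancreas and 0, 15.2 and 30.9 CPM in kidney; it was not called (adjusted p = 0.0817), and neither was the elastase Cela2a at 4083, 3743 and 22850 CPM (0.073). The carboxyl ester lipase Cel was at 4662, 3887 and 16970 CPM against 0.0478, 8.22 and 16.4 CPM in kidney (-10.01, SE 2.05; adjusted p = 0.0293), a call lost without pancreas replicate 1 or any kidney library (adjusted p up to 0.243). The elastase Cela1 was at 2537, 2244 and 14120 CPM against 1.82, 16.3 and 31.0 CPM (-8.59, SE 0.96; adjusted p = 2.75e-05) and passed in every fit with 1 library left out. Pancreas replicate 6 was a median 5.47 times the mean of replicates 1 and 5 over the 24 called acinar genes, but 0.957 times over the 10263 genes above 1 CPM in all 6 libraries. With kidney replicate 3 left out 12 acinar genes were called, and 24 without pancreas replicate 5.

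Acinar identity depends on the basic helix-loop-helix factors Ptf1a and Bhlha15, which bind E-boxes. The sequences upstream of Cel and Cela1 are shown because these called genes carry the acinar difference and hold such letters. They are the 250 bases before the RefSeq start, 5′ to 3′ in the direction of the gene (GRCm38.p6, minus strand), from chr2:28563404-28563653 for Cel and chr15:100687921-100688170 for Cela1. Capitals mark CACCTG or its reverse complement CAGGTG.
Cel: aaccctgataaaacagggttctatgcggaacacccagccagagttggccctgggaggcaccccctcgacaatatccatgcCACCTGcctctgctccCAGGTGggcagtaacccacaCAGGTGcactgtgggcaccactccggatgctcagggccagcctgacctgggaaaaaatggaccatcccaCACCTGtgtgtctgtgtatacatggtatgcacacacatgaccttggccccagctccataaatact
Cela1: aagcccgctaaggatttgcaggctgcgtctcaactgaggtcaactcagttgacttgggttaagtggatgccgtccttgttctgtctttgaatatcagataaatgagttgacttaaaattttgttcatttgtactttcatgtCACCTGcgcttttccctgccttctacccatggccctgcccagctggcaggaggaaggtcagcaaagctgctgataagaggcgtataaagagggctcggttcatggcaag
Cel held 4 such matches and Cela1 held 1, at 109 bases before the start. Of the 24 tested acinar genes with a window, 14 held a match, against 19.4% of all 27025 genes in the RefSeq table. A match describes these letters only.

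A further group of called pancreas genes was not on the acinar list but was likewise highest in pancreas replicate 6. Cuzd1, a zymogen granule membrane protein, stood at 150, 105 and 390 CPM in pancreas with 2 counts over the 3 kidney libraries, a ratio of 6705 (95% interval 1856 to 55370, exact, counting error only). Slc39a5, a zinc importer, was at 6.52, 9.93 and 46.2 CPM and without a count in kidney, at least 398-fold higher, and the aquaporin Aqp12 at 7.24, 8.27 and 46.7 CPM was at least 392-fold higher, both taken against 3 counts over the group. Slc39a5 was also present in LPL Treg at 4.35 to 45.7 CPM and in IEL Treg at 2.93 to 12.2 CPM. Pdia2, a protein disulfide isomerase of the pancreas, was at 221, 167 and 708 CPM against 0, 0.681 and 0.922 CPM, and Tff2, a trefoil peptide, at 28.3, 22.7 and 230 CPM against 0, 0.213 and 0.209 CPM. The serpin Serpini2 was at 1.39, 1.25 and 148 CPM with 1 kidney count (ratio 2387, 428 to 94340). The 7 called pancreas genes outside the acinar list, Xist aside, that were under 10 CPM in all other 24 Treg libraries were a median 6.02 times higher in pancreas replicate 6 than in the mean of replicates 1 and 5 (2.17 to 112). Slc39a5, Cuzd1 and Pdia2 passed in every fit with 1 library left out. Tff2, Amy1, Aqp12 and Serpini2 lost their call without kidney replicate 3, kidney replicate 5 or pancreas replicate 6 (adjusted p = 0.114 to 0.438), Aqp12 also without pancreas replicate 1 (0.0532) or 5 (0.0570) and Serpini2 without kidney replicate 1 (0.0826). The predicted genes Gm19569, at 0.937, 1.32 and 2.45 CPM with no kidney count (at least 34.5-fold, lost in each of those 6 fits), and 1810028F09Rik, at 20.0, 11.5 and 198 CPM against 0, 0.0426 and 0.209 CPM (lost without pancreas replicate 6, adjusted p = 0.0991), were called as well. Gm19569, which is among the 7 genes above, had a mean of 1.59 CPM in lymphoid and 1.57 CPM in pancreas Treg, so it was low in kidney rather than high in pancreas. The amylase gene Amy1 was at 10.5, 8.57 and 64.7 CPM against 0.574, 0 and 0.0419 CPM and shares sequence with the other amylase genes, so its counts are uncertain. Xist was called higher in pancreas as well, with 3 kidney counts and a ratio of 1199 (410 to 5816), from pancreas replicates 1 and 5 alone, a call kept only without pancreas replicate 6 (adjusted p up to 0.265 otherwise).

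Tubule transcripts were fewer and came mostly from a single library. They made up 0.404%, 0.0162% and 0.0148% of counts in kidney Treg and 0.0268%, 0.0222% and 0.0892% in pancreas Treg, with 0.00878% to 0.0156% in lymphoid Treg and 0.0241% in kidney Tconv. By this summed share kidney replicates 3 and 5 stood near the lymphoid level and below the pancreas, where the kallikrein Klk1, which the pancreas also makes, led the list at 152, 102 and 912 CPM. By the mean over the 21 genes tested, as log2(CPM + 1), which weighs each gene alike, the kidney libraries stood at 4.98, 1.84 and 1.54, all above the pancreas at 1.38, 1.2 and 1.47 and the lymphoid range of 0.76 to 1.11. Of 33 listed genes 21 were tested, with a median log2 fold change of 6.87 against 0.01 over all genes. In every kidney library 11 were above the pancreas, and 2 were called, against 5.35% and 0.0391% of all genes. Over those 11 genes kidney replicate 1 was a median 20.4 times the mean of replicates 3 and 5, with a range of 1.02 to 448.

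Gpx3, the secreted glutathione peroxidase of the proximal tubule, was at 532, 36.1 and 24.3 CPM in kidney and 1.27, 1.36 and 2.73 CPM in pancreas. All kidney libraries were above the lymphoid range of 1.06 to 8.10 CPM, and kidney Tconv had 36.4 CPM. The log2 fold change of 6.81 (SE 1.01; adjusted p = 0.000644) fell to 4.09 without kidney replicate 1 and remained called in all 6 fits with 1 library left out (adjusted p at most 0.0148). The phosphate carrier Slc34a1 was at 89.6, 5.45 and 2.89 CPM with no pancreas count, at least 648-fold higher against 3 counts over the group (adjusted p = 0.0234), and was lost without kidney replicate 1 or any pancreas library (adjusted p up to 0.121). Egf, made by the distal nephron, was at 1024, 1.53 and 0 CPM against 3.56, 0.809 and 6.40 CPM, so that its log2 fold change of 6.6 turned to -2.21 without kidney replicate 1. Ass1, an enzyme of arginine synthesis on the tubule list that lymphoid Treg also held at 55.0 to 105 CPM, was at 95.5, 93.0 and 94.6 CPM against 70.8, 75.6 and 75.3 CPM (0.35; adjusted p = 0.603). The share of tubule counts is set out beside the acinar share in the plot by library.

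**Figure D3:**
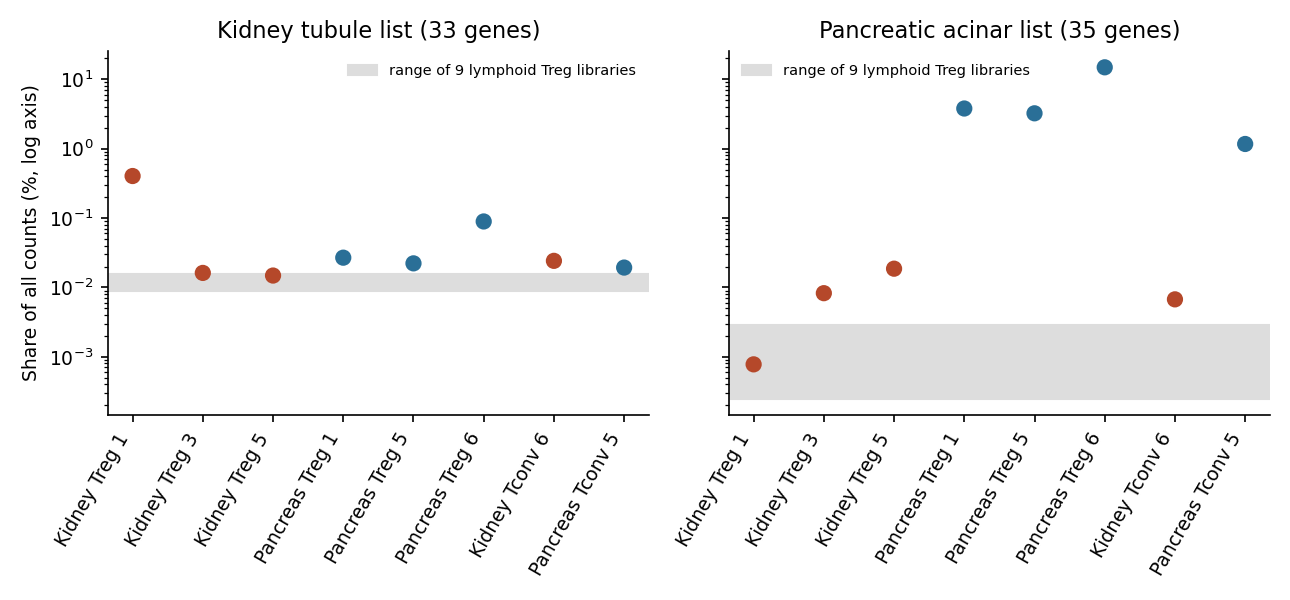
Share of all counts, in percent on a log axis, that fell on the 33 tubule genes (left) and the 35 acinar genes (right) in each kidney (red) and pancreas (blue) library, Tconv included, with the range of 9 lymphoid Treg libraries in grey. Kidney replicate 1 stands alone at 0.404% tubule counts, and the pancreas libraries hold 1.17% to 14.9% acinar counts.

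Ccr8, Tox2 and Hspa1a, taken as markers of Treg of these organs with earlier results of these data known, were not called between kidney and pancreas. Ccr8 was at 297, 864 and 1071 CPM in kidney and 436, 381 and 473 CPM in pancreas, with kidney replicate 1 below all pancreas libraries (log2 fold change 0.79, SE 0.40; adjusted p = 0.617). Against lymphoid Treg, at 3.31 to 165 CPM, it was higher in both organs, by 4.36 in kidney (adjusted p = 1.66e-09) and 3.56 in pancreas (adjusted p = 8.09e-09). Tox2, a factor of the Tox family, was at 67.1, 148 and 152 CPM in kidney and 356, 276 and 175 CPM in pancreas. Every pancreas library was above every kidney library, but the difference of -1.14 (SE 0.42) had an adjusted p of 0.453. Tox2 was higher than in lymphoid Treg (4.35 to 89.1 CPM) by 1.96 in kidney (adjusted p = 9.87e-05) and 3.09 in pancreas (adjusted p = 1.67e-07). It was not particular to these organs. LPL Treg held 392 to 508 CPM, IEL Treg 236 to 314 CPM and Peyer's patch Treg 209 to 296 CPM, all above every kidney library.

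Hspa1a, the stress-inducible chaperone of the Hsp70 family, split the pancreas libraries. It stood at 266, 2107 and 1657 CPM in kidney and at 2.02, 3.38 and 1286 CPM in pancreas, so that pancreas replicate 6 was at the kidney level and replicates 1 and 5 were near the lymphoid range of 0 to 2.5 CPM. The log2 fold change of 1.64 (SE 1.47; adjusted p = 0.885) became 8.96 (adjusted p = 0.0187) without pancreas replicate 6. In the other 24 Treg libraries the highest value was 74.7 CPM in LPL replicate 1, and 4 of the 24 were above 10 CPM. The Tconv of kidney held 3050 CPM and that of pancreas 1.44 CPM. Pancreas replicate 6 was also the pancreas library without Xist and the one with the most acinar counts. With Xist class as a term the Hspa1a difference was 0.56 (SE 1.40; adjusted p = 0.926), but that term cannot be told apart from other traits of pancreas replicate 6. The part of the acinar counts was not tested.

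**Figure D4:**
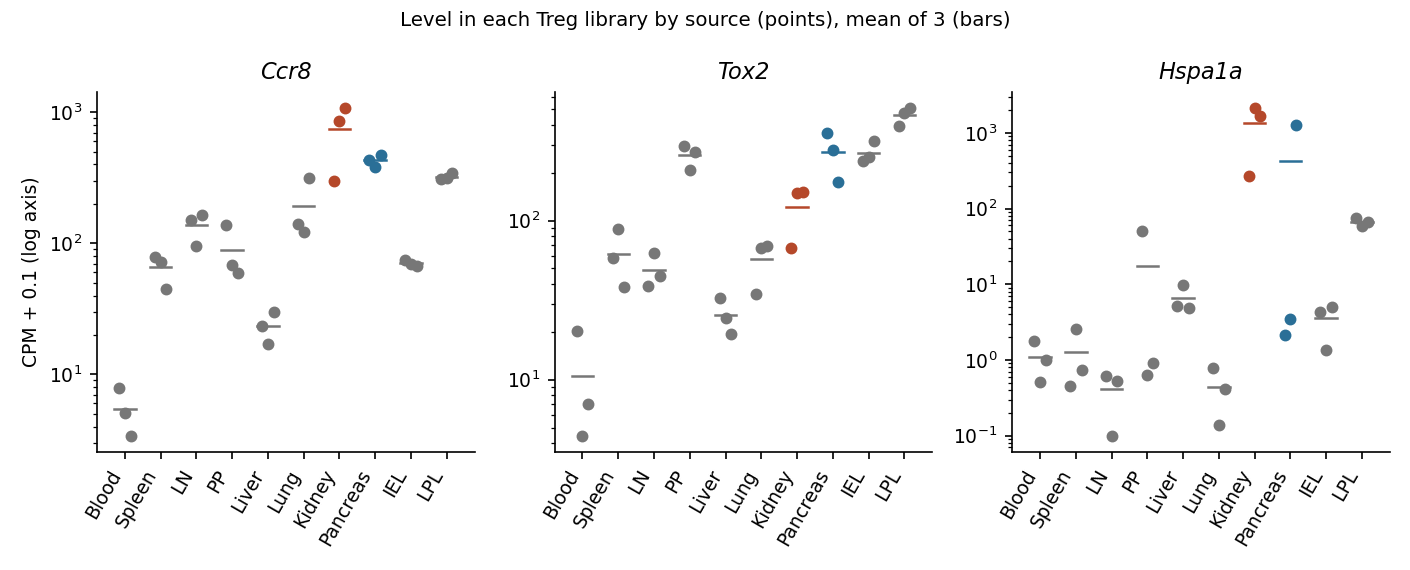
Level of Ccr8, Tox2 and Hspa1a as CPM + 0.1 on a log axis in each Treg library (points) and the mean of 3 (bars) for 10 sources, with kidney in red and pancreas in blue. For Hspa1a 1 pancreas point at 1286 CPM stands among the kidney points and the other 2 lie at 2.02 and 3.38 CPM.

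Heat shock genes are driven by Hsf1, which binds pairs of GAA units in opposite directions. The sequences upstream of Hspa1a, its neighbour Hspa1b and the chaperone gene Hsph1 are shown because these genes carried the split between libraries and hold such a pair. They are the 250 bases before the RefSeq start (GRCm38.p6, minus strand), from chr17:34972157-34972406, chr17:34959239-34959488 and chr5:149636337-149636586. Capitals mark GAANNTTC or TTCNNGAA, each its own reverse complement. Hsph1 has 2 windows in the RefSeq table, and the first with a match is shown.
Hspa1a: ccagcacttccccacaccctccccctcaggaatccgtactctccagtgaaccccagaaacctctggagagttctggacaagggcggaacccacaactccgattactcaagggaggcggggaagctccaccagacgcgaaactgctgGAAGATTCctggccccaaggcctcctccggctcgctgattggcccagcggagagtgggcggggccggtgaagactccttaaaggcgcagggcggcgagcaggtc
Hspa1b: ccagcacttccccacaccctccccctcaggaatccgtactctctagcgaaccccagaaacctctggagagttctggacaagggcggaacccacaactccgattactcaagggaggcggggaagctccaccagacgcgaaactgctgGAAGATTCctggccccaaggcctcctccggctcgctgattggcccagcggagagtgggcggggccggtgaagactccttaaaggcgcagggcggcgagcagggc
Hsph1: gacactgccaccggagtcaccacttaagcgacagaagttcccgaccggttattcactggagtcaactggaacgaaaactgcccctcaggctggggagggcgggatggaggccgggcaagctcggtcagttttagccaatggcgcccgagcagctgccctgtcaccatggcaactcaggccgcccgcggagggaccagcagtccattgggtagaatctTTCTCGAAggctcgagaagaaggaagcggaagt
The windows of Hspa1a and Hspa1b were identical at 247 of 250 bases (98.8%), and each held its match 104 bases before the start. Of the 24 heat shock genes tested, 19 had a window and 10 of these held either pair, against 14.5% of all genes in the table. Dnajb1, which was also highest among the pancreas libraries in replicate 6, has a window without such a pair.

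Because Hspa1a and Hspa1b are near-identical copies, the division of reads between them is uncertain, and their sum is given. The sum was 855, 7447 and 6061 CPM in kidney and 11, 6.51 and 3975 CPM in pancreas, with pancreas replicates 1 and 5 again far below the other 4 libraries. Of the 24 heat shock genes none was called between the organs and 22 had a positive log2 fold change, with a median of 0.46 against 0.01 over all genes. In every kidney library 2 of the 24 were above the pancreas, against 5.35% of all genes. The J-domain protein Dnajb1 was at 432, 2260 and 1637 CPM in kidney and 122, 142 and 761 CPM in pancreas (2.08, SE 0.59; adjusted p = 0.234), and was called without kidney replicate 1 (adjusted p = 0.0337) or pancreas replicate 6 (0.00597). The constitutive chaperone Hspa8 was at 1375, 2345 and 2056 CPM against 569, 489 and 1225 CPM, without overlap (1.34, SE 0.41; adjusted p = 0.289), and the co-chaperone Dnaja4 at 51.3, 76.5 and 85 CPM against 24.9, 22.9 and 38.2 CPM (1.31; adjusted p = 0.192). Hsph1 was at 209, 482 and 399 CPM against 79.5, 71.6 and 510 CPM, with pancreas replicate 6 the highest of the 6 (0.72, SE 0.77; adjusted p = 0.935). Without kidney replicate 1 and pancreas replicate 6, 5 heat shock genes were called higher in kidney and none lower, against 117 of all 18983 genes tested called higher in kidney. Organ and Xist class cannot be told apart in that fit. Dnajb1 then had a log2 fold change of 3.89 (adjusted p = 0.000232), Hspa1a 9.45 (0.00816), Hspa1b 9.66 (0.0195), Hspa8 2.06 (0.0283) and Dnaja4 1.76 (0.0427).

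The mean level of the heat shock list, as log2(CPM + 1), was 6.91, 7.43 and 7.38 in kidney and 5.53, 5.47 and 7.40 in pancreas, against 5.22 to 6.39 in lymphoid Treg. All kidney libraries and pancreas replicate 6 were above the lymphoid range and pancreas replicates 1 and 5 within it. Against lymphoid Treg 11 of the 24 genes were higher in kidney and 5 in pancreas, where 12.2% and 7.64% of all genes tested were called higher, and none was called lower, where 4.26% and 2.31% of all genes were. With Xist class as a term in the fit the median of the list between the organs was 0.03 and no member was called.

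Early response genes were high in Treg of both organs, which is why the pair was chosen, so their levels against lymphoid Treg are a description and support nothing further. Against lymphoid Treg, 27 of the 31 genes tested were higher in kidney, at a median of 4.13 on the log2 scale, and 26 of 31 in pancreas, at a median of 3.09. Of all genes tested 12.2% and 7.64% were called higher, with medians of 0.04 and 0.05, and both comparisons share the 9 lymphoid libraries. The mean level of the list as log2(CPM + 1) was 8.09, 9.03 and 9.11 in kidney and 8.03, 8.41 and 7.90 in pancreas, against 4.63 to 5.70 in lymphoid Treg, so that every library of both organs was above the lymphoid range and kidney replicate 1 stood at the pancreas level. Between the organs 1 gene, Klf10, was called, 8 of the 31 were above the pancreas in every kidney library, 2 were below, and the median was 0.68. Of all genes tested 0.251% were called, 5.35% were above and 6.3% below. The sign of that median turned to -0.46 with Xist class as a term.

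Fos was at 808, 1166 and 1317 CPM in kidney and 1191, 1818 and 398 CPM in pancreas, and the organs overlapped (log2 fold change -0.05, SE 0.83; adjusted p = 1). Junb was at 4240, 7228 and 7502 CPM against 5467, 6508 and 3728 CPM (0.27, SE 0.56; adjusted p = 0.998). The nuclear receptor Nr4a1, a readout of T cell receptor signals, was at 2053, 5402 and 5388 CPM against 2460, 3114 and 813 CPM (1.01, SE 0.60; adjusted p = 0.713). In these genes pancreas replicate 6 was the lowest of the 6 libraries. Jund and Klf6 were higher in every kidney library. Jund was at 837, 1397 and 1521 CPM against 584, 718 and 448 CPM (1.10, SE 0.30; adjusted p = 0.183, and 0.0375 without kidney replicate 1), and Klf6 at 1530, 1828 and 1539 CPM against 496, 792 and 836 CPM (1.21, SE 0.33; adjusted p = 0.202). Ier5, another immediate early gene, was at 269, 652 and 642 CPM against 278, 276 and 241 CPM, with an adjusted p of 0.0658 that fell to 0.000295 without kidney replicate 1. Egr3 ran the other way, at 3.63, 6.99 and 5.36 CPM in kidney and 20.1, 28.4 and 14.2 CPM in pancreas (-1.97, SE 0.60; adjusted p = 0.292), below all pancreas libraries.

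**Figure D5:**
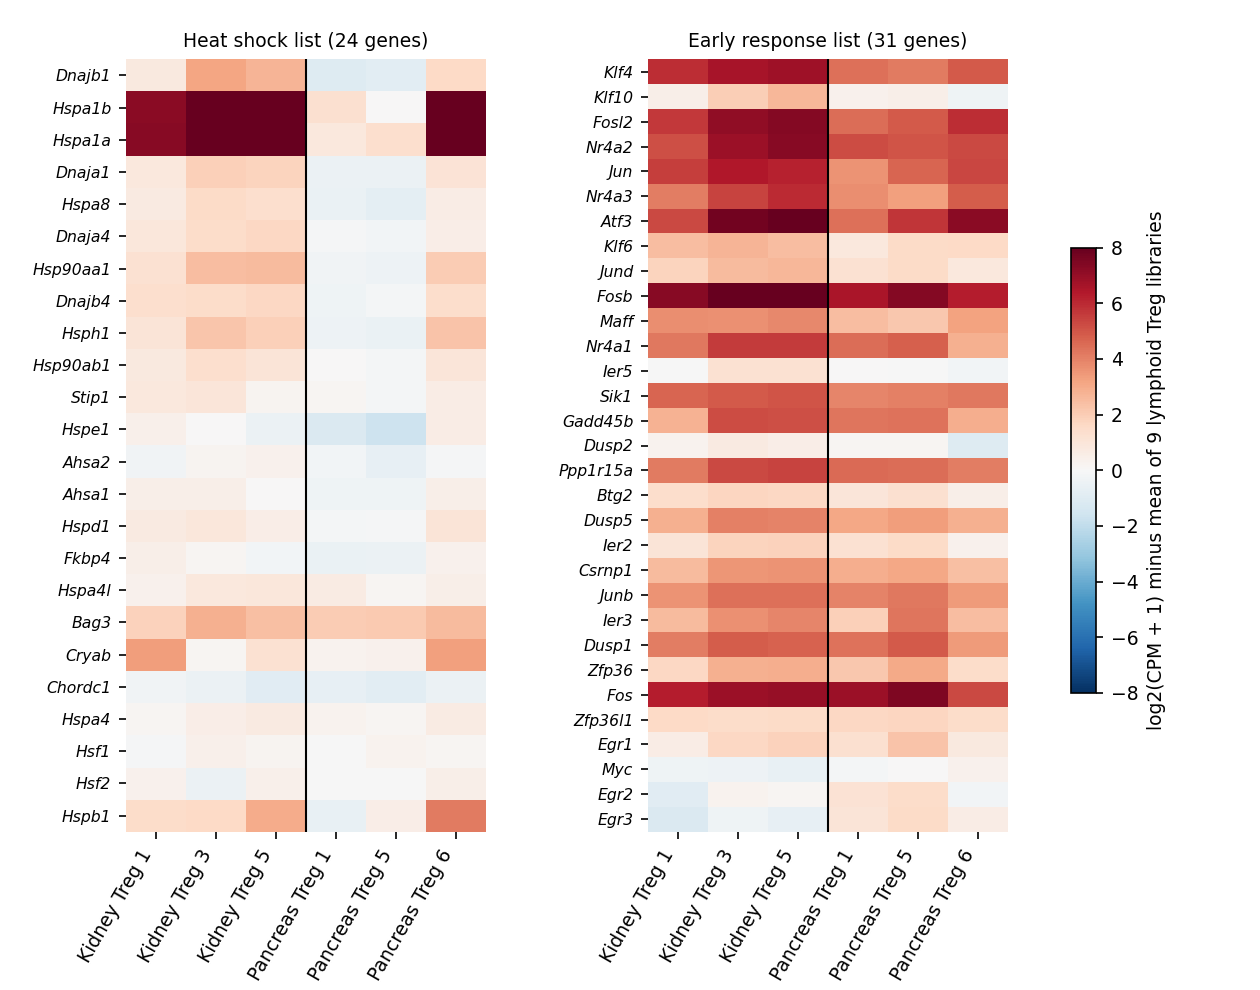
Level of each tested heat shock (24) and early response (31) gene in the 6 libraries, as log2(CPM + 1) minus the mean of 9 lymphoid Treg libraries, with red above and blue below that mean and colours cut at 8 units. Pancreas replicate 6 resembles kidney for Hspa1a, Hspa1b and Hsph1 on the left, and on the right most early response genes are red in all 6 libraries.

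Chemokine receptors and homing integrins gave 1 call in each direction among 30 genes tested, Ccr10 and Ccr6, against 0.251% of all genes called. Of the 30, 4 were higher in every kidney and 3 in every pancreas library, against 5.35% and 6.3% of all genes. Cxcr5, which leads cells to B cell follicles, was at 50.4, 10.4 and 11.2 CPM in kidney and 125, 83.5 and 66.2 CPM in pancreas, without overlap (-1.93, SE 0.49; adjusted p = 0.123). It was called without kidney replicate 1, at -3.10 (adjusted p = 0.000816). Gpr15, a gut homing receptor, was at 8.80, 13 and 5.24 CPM against 22, 24.4 and 20.7 CPM (-1.31; adjusted p = 0.275). The integrin chain Itgb3 was at 73.4, 287 and 238 CPM against 71.6, 90.7 and 106 CPM (1.16; adjusted p = 0.252), and the chemokine receptor Cxcr6 at 71.3, 517 and 675 CPM against 121, 218 and 192 CPM (1.25; adjusted p = 0.559). In both, kidney replicate 1 lay at or below the pancreas level and replicates 3 and 5 above it, and Itgb3 was called without kidney replicate 1 (1.55; adjusted p = 0.00527).

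Genes of recirculation and the naive state had no call among 24 tested and a median of -0.00. Klf2, the factor that maintains egress receptors, was nonetheless at 2288, 1666 and 1310 CPM in kidney and 423, 635 and 819 CPM in pancreas, without overlap (1.49, SE 0.35; adjusted p = 0.0818). Tcf7, a factor of naive and memory T cells, was at 1386, 347 and 254 CPM in kidney and 1319, 1035 and 904 CPM in pancreas (-0.71; adjusted p = 0.713), so that kidney replicate 1 alone reached the pancreas level, and without it Tcf7 was called at -1.86 (adjusted p = 0.00834). Of 24 residency genes 1 was called (Litaf), against 0.251% of all genes. In this list 18 had a positive log2 fold change, with a median of 0.49 against 0.01 over all genes. Of 30 genes known from tissue Treg none was called and 2 were higher in every pancreas library, against 6.3% of all genes. Among them the suppressive ligand Fgl2 was at 180, 1262 and 1284 CPM against 188, 387 and 120 CPM (1.97, SE 0.53; adjusted p = 0.178) and the lipid droplet protein Plin2 at 31.7, 169 and 167 CPM against 31.4, 38.7 and 48.3 CPM (1.64; adjusted p = 0.214). Both were called without kidney replicate 1, Fgl2 at 2.44 (adjusted p = 0.00603) and Plin2 at 2.09 (0.00641). Without pancreas replicate 6 as well, 6 of the 30 were called higher in kidney, against 117 of all 18983 genes tested. Organ and Xist class coincided in that last fit.

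Follicular T cell genes and the Tox family were not called, but several lay without overlap on the pancreas side. Of 18 genes tested 7 were higher in every pancreas library and none in every kidney library, against 6.3% and 5.35% of all genes, and 12 had a negative log2 fold change, with a median of -0.22. Sh2d1a, the adaptor SAP that follicular helper cells need, was at 77.7, 72.2 and 64.1 CPM in kidney and 162, 123 and 162 CPM in pancreas (-1.06, SE 0.24; adjusted p = 0.0503, and 0.0410 without kidney replicate 1 or 0.0451 without pancreas replicate 5). Its partner receptor Slamf6 was at 184, 109 and 99.7 CPM against 231, 192 and 191 CPM (-0.65; adjusted p = 0.322, and 0.0116 without kidney replicate 1), and Tox at 221, 175 and 205 CPM against 358, 271 and 236 CPM (-0.53; adjusted p = 0.48). The cytokine Il21 had no count in kidney Treg and stood at 23.6, 4.78 and 0.0681 CPM in pancreas, at least 270-fold higher against 3 counts over the group (adjusted p = 0.118, and 0.0461 without pancreas replicate 6), while the Tconv libraries of kidney and pancreas had 16.7 and 33.4 CPM. With Tox2 and Cxcr5 above, these genes were all lower in each kidney than in each pancreas library. For Il21, which is among the 7, pancreas replicate 6 was below the 0.171 CPM that a count of 0 allows. Its separation from kidney in that library is therefore not measurable.

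Genes of type 1 and cytotoxic function did not pass the test, and several had high values in kidney replicates 3 and 5 only. The transcription factor Tbx21 was at 33.3, 290 and 321 CPM in kidney and 48.4, 95.9 and 17.7 CPM in pancreas (1.99, SE 0.61; adjusted p = 0.289), and interferon gamma, Ifng, at 12.0, 93.8 and 118 CPM against 24.5, 20.5 and 9.61 CPM (2.04, SE 0.68; adjusted p = 0.371). Granzyme B, Gzmb, was at 9.66, 92.7 and 72.0 CPM against 4.35, 5.26 and 12.1 CPM (3.02, SE 0.68; adjusted p = 0.0592). Perforin, Prf1, differed in shape: its kidney libraries, at 22.4, 17.8 and 15.4 CPM, were close together and all above the pancreas libraries at 7.42, 1.84 and 9.33 CPM (1.59; adjusted p = 0.27). The chemokine Ccl5 was at 27.3, 182 and 141 CPM against 41.3, 44.7 and 27.9 CPM (1.62; adjusted p = 0.403). Of the 18 cytotoxic genes tested, of 23 listed, 13 had a positive log2 fold change, with a median of 0.74. In every kidney library 3 of the 18 were above the pancreas, against 5.35% of all genes. Without kidney replicate 1, Gzmb was called at 3.53 (adjusted p = 0.00308) and Tbx21 at 2.48 (0.0203). Of 32 cytokine and repair genes and of 34 lineage factors none was called, with medians of 0.02 and 0.14.

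Sterol and lipid genes were not called, with mostly positive differences. Of 30 genes tested 27 had a positive log2 fold change, with a median of 0.57, and 2 were higher in every kidney library, against 5.35% of all genes. Hmgcs1, an enzyme early in the sterol pathway, was at 61.5, 69.4 and 128 CPM in kidney and 41.7, 43.7 and 40.9 CPM in pancreas (1.03, SE 0.24; adjusted p = 0.0731). Insig1, the sterol sensor partner, was at 58.2, 170 and 223 CPM against 59.1, 62.9 and 54.4 CPM (1.35, SE 0.32; adjusted p = 0.0825). The demethylase Cyp51 was at 109, 326 and 412 CPM against 113, 108 and 155 CPM (1.17; adjusted p = 0.27). Kidney replicate 1 lay within or next to the pancreas range for Insig1 and Cyp51. These 3 genes were called without kidney replicate 1 (adjusted p = 0.000796 for Insig1 to 0.0156 for Hmgcs1), and 6 of the 30 in all. That fit called 144 genes in either direction, against 45 with all libraries.

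Interferon-stimulated genes had 7 of 33 members above the pancreas in every kidney library and none below, against 5.35% and 6.3% of all genes, with a median of 0.45 and no call. Rsad2 was at 9.37, 99.7 and 92.7 CPM against 20.5, 9.38 and 28.5 CPM (1.79; adjusted p = 0.292, and 0.00611 without kidney replicate 1), and the interferon gamma target Igtp at 382, 534 and 415 CPM against 239, 242 and 335 CPM (0.70; adjusted p = 0.17). Of 29 genes of glycolysis and hypoxia 1 was called (Txnip), against 0.251% of all genes, and 5 were higher in every kidney library, against 5.35%. Of the 29, 26 had a positive log2 fold change, with a median of 0.24. The mTOR inhibitor Ddit4 was at 81.2, 150 and 157 CPM against 34.3, 30.2 and 69.4 CPM (1.54; adjusted p = 0.257), and the glucose carrier Slc2a1 at 109, 211 and 221 CPM against 85.9, 105 and 103 CPM (0.88; adjusted p = 0.284, and 0.0302 without kidney replicate 1). Ddit4 was again lower in pancreas than in lymphoid Treg (-2.12; adjusted p = 0.00147) and not different by the test in kidney (-0.58; adjusted p = 0.316). Tsc22d3, the glucocorticoid-induced gene GILZ, was at 1355, 1117 and 778 CPM against 326, 461 and 433 CPM, without overlap (1.41, SE 0.39; adjusted p = 0.202).

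Cell cycle genes had a negative log2 fold change, that is higher in pancreas, in 29 of 30 cases, with a median of -0.68 and no call. Bub1b, of the spindle checkpoint, was at 8.13, 7.24 and 11.7 CPM in kidney and 37.7, 16.4 and 15.1 CPM in pancreas (-1.35, SE 0.56; adjusted p = 0.519), and cyclin A2, Ccna2, at 4.11, 18.5 and 9.93 CPM against 41.5, 29.0 and 17.1 CPM (-1.43; adjusted p = 0.558). Against lymphoid Treg 17 of the 30 were called higher in pancreas and 6 in kidney, where 7.64% and 12.2% of all genes tested were. Cytosolic ribosomal protein genes had a positive log2 fold change in 29 of 30 cases with a median of 0.27 and no call, and the median turned to -0.09 without kidney replicate 1. Treg identity genes (22 tested) and T cell receptor signalling genes (30 tested) had no call and medians of 0.05 and 0.05.

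Markers of other cells were at low shares, and their part in the differences above was not tested. Myeloid markers took 0.0937%, 0.308% and 0.355% of counts in kidney and 0.107%, 0.321% and 0.0577% in pancreas Treg, against 0.0556% to 0.153% in lymphoid Treg. The libraries with the most, kidney replicates 3 and 5 and pancreas replicate 5, were led by Cd74, the invariant chain of MHC class II, at 312, 1570 and 1715 CPM against 371, 1047 and 217 CPM. No myeloid marker of 23 tested was called and none separated the organs. B cell markers took 0.0757%, 0.0796% and 0.105% in kidney and 0.126%, 0.112% and 0.0562% in pancreas, within the lymphoid range of 0.0638% to 0.149% but for the lowest, and the immunoglobulin light chain Igkc stood at 322 CPM in kidney replicate 5 and at most 44.6 CPM in the others. Endothelial markers took 0.0502%, 0.0188% and 0.0177% in kidney and 0.0211% to 0.0282% in pancreas. Of 17 endothelial genes tested none was called and 8 were above the pancreas in every kidney library, against 5.35% of all genes. Among them was the receptor Kdr at 18.4, 14.7 and 6.96 CPM with 1 count in the 3 pancreas libraries (ratio 842, 95% interval 151 to 33290). Of 18 endothelial markers 8 had no count in any pancreas library.

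The difference between the organs was also compared between Treg and Tconv, in a fit of all 40 libraries with 1 Tconv library for each organ. Of 22976 genes tested 6 (0.0261%) had a different organ effect in Treg and Tconv, 2 with a higher and 4 with a lower kidney to pancreas difference in Treg, and 756 had an unadjusted p below 0.05. A single Tconv library in each organ was assumed to vary like the replicated groups, and no gene was called without pancreas replicate 5 and 1 without pancreas replicate 6. Tbc1d4, at 110 and 246 CPM in kidney and pancreas Tconv, and Ccr10, at 21.4 and 1.53 CPM, had Tconv levels in the same order as in Treg. Tconv levels use a scaling over all 40 libraries.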

How the data were processed

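CD4+ Treg and Tconv of 10 sources were profiled by QuantSeq 3′ mRNA sequencing, per the labels' protocols. The authors deposited 1 table of raw counts per gene, whole numbers without scaling. The submitters' processing notes name Trim Galore, STAR with the mm10 genome, featureCounts, FastQC, MultiQC, DESeq2 and DESeq. The annotation release and whether strand was used are not given in the sources used here, so overlapping antisense genes cannot be told apart. Counts follow 3′ ends and were not divided by gene length, so levels are compared within a gene. Of 55421 genes, 55154 had a symbol.

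Counts of the 30 Treg libraries were fitted with edgeR 4.0.16 in R 4.3.3 with a mean per source, filterByExpr, TMM and the robust quasi-likelihood F test, and adjusted by Benjamini-Hochberg over all genes tested. The scripts were tested on simulated data. A gene that was not called is not shown to be equal in both organs. Alternatives used DESeq2 1.42.0 and limma 3.58.1. Depth limits a count of 0 to a level of up to 0.171 CPM (3 counts), and intervals (95%, exact) cover counting error only. Promoter windows are RefSeq's. Plots used matplotlib 3.10.9 (Python 3.11.15).

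The members and gene lists were chosen with earlier results of these data known. Named genes are Foxp3, Ccr8, Tox2 and Hspa1a, the 10 called genes of each direction with the smallest p and a log2 difference of 1 or more in size outside lists of other cells, and up to 5 members per list by p (4 by level for other cells). Ccl20, Hspa1b, Hsph1, Slc34a1, Nr4a1, Fos, Junb, Gm19569, 1810028F09Rik, Tcrg-C4 and Tcrg-C2 were named after their values were seen. An item withheld from the text is not reported here. Replicate numbers 1 and 5 were shared between the organs, but the labels do not say that they mark an animal or day, so the samples were not paired. Ddx3y was at 98.5 and 108.5 CPM in kidney replicates 1 and 5. It was at 0.152 and 0.110 CPM in pancreas replicates 1 and 5 (all without TMM scaling). The same number therefore did not mark the same animal in both organs.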

Additional observations from a re-analysis of the deposited data

Results flagged for a closer look

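The kidney minus pancreas difference was not the same in Treg and in Tconv for 6 genes, tested as the difference of the differences in a fit of all 40 libraries (edgeR). Each organ had a single Tconv library, and the spread of the replicated groups was assumed for it. Itgae, the integrin chain CD103, stood at 201, 339 and 339 CPM in kidney and 307, 262 and 249 CPM in pancreas Treg, and at 31.8 and 3.07 CPM in the Tconv of kidney and pancreas (difference -3.27 on the log2 scale, SE 0.52; adjusted p = 0.0296). The Treg levels overlapped and the Tconv levels were far apart. Ikzf4, which encodes the Foxp3 partner Eos, was at 175, 217 and 250 CPM against 277, 207 and 248 CPM in Treg and at 2.01 and 20.0 CPM in Tconv (3.12, SE 0.56; adjusted p = 0.0377).

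Socs2, a feedback inhibitor of cytokine receptors, was at 21.6, 64.3 and 65.5 CPM against 31.8, 38.3 and 36.8 CPM in Treg and at 89.1 and 6.29 CPM in Tconv (-3.32, SE 0.60; adjusted p = 0.0377). Entpd1, the ectonucleotidase CD39, was at 68.8, 120 and 135 CPM against 54.4, 80.4 and 55.6 CPM in Treg and at 97 and 10.1 CPM in Tconv (-2.49, SE 0.46; adjusted p = 0.0438). Gata1, an erythroid and megakaryocyte factor, was at 15.9, 4.52 and 3.22 CPM against 7.43, 12.4 and 10.8 CPM in Treg and at 0 and 10.6 CPM in Tconv, so its fitted value of 10.46 (SE 1.79; adjusted p = 0.0377) rests on a kidney Tconv library without a count and is no measure of size. The other called gene, Tcrg-C4, a constant segment of the gamma chain of the gamma delta T cell receptor, was named after its values were seen. It was at 0.143, 0.174 and 0 CPM against 0.586, 0.958 and 1.88 CPM in Treg and at 57.4 and 2.73 CPM in Tconv (-7.74, SE 1.36; adjusted p = 0.0377), and the related segment Tcrg-C2, not called, was at 69.3 and 6.04 CPM in Tconv. The kidney Tconv library thus held more of both segments than the pancreas one, and the part of this in the Tconv levels above was not tested. No gene was called without pancreas replicate 5.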

How the results depend on the processing

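The number of genes called between the organs (45, with 7 higher in kidney and 38 in pancreas) moved with most choices. DESeq2's Wald test called 182 (75 and 107), with 4 early response and 2 heat shock genes higher in kidney. limma-voom with quality weights, which gave kidney replicate 1 a weight of 0.319 and pancreas replicate 6 one of 0.499, called 1421 (872 and 549), with 8 tubule, 14 early response and 10 heat shock genes. Voom also called 5330 genes for kidney and 4778 for pancreas against lymphoid Treg. The 6 libraries alone gave 1 call (0 and 1), with 0 acinar, 0 tubule and 0 early response genes. Removing markers of other cells left 10 (3 and 7). Without a filter on low counts 4 tubule and 2 early response genes were called. A test against an absolute log2 fold change of 1 left 3 genes higher in kidney, 0 early response genes, and 778 and 424 calls for kidney and pancreas against lymphoid Treg. DESeq2 size factors gave the same 45 as a count.

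Chosen after seeing the data, leaving out kidney replicate 1 with pancreas replicate 6 gave 187 calls (117 and 70), with 1 tubule, 2 early response and 5 heat shock genes. Organ and Xist class coincided in that fit. Xist class as a term, also chosen after seeing the data, gave 121 (62 and 59). It reversed Hsph1 to -0.18, Nr4a1 to -0.32 and Junb to -0.81, and the cause was not tested. Xist, whose level defines the class, turned to 1.31, so the loss of its difference was fixed in advance.

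Leaving out 1 library at a time gave 21 to 144 calls (2 to 64 higher in kidney, 18 to 80 in pancreas), the fewest without kidney replicate 3 and the most without kidney replicate 1. The acinar count ran from 12 to 24, tubule 1 to 3, early response 0 to 3 and heat shock 0 to 2. Against lymphoid Treg the calls ran from 1597 to 3102 for kidney and 1011 to 2034 for pancreas, and the Treg minus Tconv difference from 0 to 9. Egf ran from -2.21 to 7.26 and Fos from -0.46 to 0.45, and Egf also turned with voom (-1.98) and without both libraries (-1.51).

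The deviations of same-numbered samples correlated at -0.0596 for number 1 and 0.150 for number 5, and pairs of unlike number at -0.202 to 0.188. Samples of the same number also differed in Xist class between the organs. The numbers were thus not taken to pair the samples. With the replicate block, 29 genes (2 and 27) were called over 30 libraries, with 0 tubule and 0 early response genes, 989 for kidney and 470 for pancreas against lymphoid Treg, and 0 (0 and 0, 0 acinar, 0 tubule, 0 early response) over 6 libraries, where Junb turned to -0.063. The block kept the call of 8 of 23 called named genes over 30 libraries and of 0 over 6.

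Over 80 named genes and all alternatives, 1036 of 1344 values kept direction and call, 177 lost and 121 gained the call, and 10 reversed, among them Xist under the term it defines. Of 23 called named genes, 23 stayed called with DESeq2 size factors, 22 with voom, 18 with the Wald test, 16 with Xist class as a term, 14 without both libraries and with the test against a log2 fold change of 1, 12 without the filter, 10 with markers of other cells removed (which drops some of the genes themselves) and 1 with the 6 libraries alone. With 1 library left out, 9 to 16 stayed called. A count of 0 allowed up to 0.171 CPM, so fold changes of genes near 3 counts are imprecise.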
